A study of Rattus norvegicus with 54 samples.

Results

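The miR-200 family is a group of epithelial miRNAs made from 5 hairpins, miR-200a, miR-200b, miR-429, miR-200c and miR-141. Its members were taken by name, with both arms of each hairpin, which gave 9 of the 832 miRNA rows in the table. The hairpins lie in 2 genomic clusters, and 5 rows belong to the cluster of miR-200a, miR-200b and miR-429 while 4 rows belong to the cluster of miR-200c and miR-141. Small RNAs of rat kidney, liver, plasma and urine were sequenced (miR-seq) in 54 libraries, arranged as 18 groups of 3. Male Sprague-Dawley rats aged 9 weeks received a single dose of a toxicant or of its vehicle. Cisplatin (5 mg/kg) was injected intravenously in 0.9% saline, and kidney, plasma and urine were taken 72 h post-dose. Acetaminophen (APAP, 1250 mg/kg) in 0.5% methylcellulose and carbon tetrachloride (CCl4, 1500 mg/kg) in corn oil were given orally, and liver, plasma and urine were taken 24 h post-dose. A label of the cisplatin urine libraries gives 1500 mg/kg, against 5 mg/kg for the kidney and plasma libraries of the same treatment. The labels do not tie libraries to animals, so different sample types may come from the same rats, and p-values measure the spread between these libraries.

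Members of the miR-200 family are made by epithelial cells, where they repress the transcription factors Zeb1 and Zeb2 and so keep E-cadherin expressed and cells attached to each other. Loss of the family accompanies the shift of epithelial cells to a mesenchymal state. In the kidney the family is known from tubule epithelium, and in the liver mainly from bile duct epithelium rather than hepatocytes. A miRNA recognises targets largely through its seed, bases 2 to 8 of the mature strand, so members with 1 seed share many targets whichever cluster they come from.

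The mature sequences of the miR-200c and miR-141 cluster are shown because both seeds of the family's 3p strands occur there, on strands from hairpins that are neighbours in the genome. Sequences are from RefSeq (rat assembly GRCr8), 5′ to 3′, with the seed in capitals. Of the 9 rows, 6 matched a mature entry there, and rno-miR-200a-3p, rno-miR-200b-3p and rno-miR-429 did not.

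rno-miR-141-3p: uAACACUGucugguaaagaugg

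rno-miR-200c-3p: uAAUACUGccggguaaugaug

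Counted from the first base of the mature strand, the seeds of miR-141-3p and miR-200c-3p differ by C4U, and the strands are identical at 17 of 21 positions. All 5 hairpins had an entry, and they are given so that the heptamers can be compared across clusters. Capitals mark the only match in each hairpin to AACACUG or AAUACUG, searched on the strand shown.

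miR-200b: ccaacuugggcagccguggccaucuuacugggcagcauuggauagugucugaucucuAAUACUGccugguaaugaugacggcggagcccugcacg

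miR-200a: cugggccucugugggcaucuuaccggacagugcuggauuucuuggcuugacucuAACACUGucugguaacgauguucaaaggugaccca

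miR-429: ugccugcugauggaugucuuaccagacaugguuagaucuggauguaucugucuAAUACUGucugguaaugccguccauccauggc

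miR-200c: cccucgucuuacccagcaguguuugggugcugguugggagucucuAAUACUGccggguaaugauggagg

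miR-141: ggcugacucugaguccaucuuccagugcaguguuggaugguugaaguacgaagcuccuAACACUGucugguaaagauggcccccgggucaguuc

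On GRCr8 the first cluster lies on the minus strand of chromosome 5, with miR-200b at chr5:171931495-171931589, miR-200a at chr5:171930717-171930805 and miR-429 at chr5:171929682-171929766, a span of 1908 bases. The second lies on the minus strand of chromosome 4, with miR-200c at chr4:159209965-159210033 and miR-141 at chr4:159209525-159209618, a span of 509 bases. The counts were made on another assembly (Rnor 5.0), and no coordinate was carried over. AACACUG stood in the miR-200a and miR-141 hairpins and AAUACUG in the miR-200b, miR-429 and miR-200c hairpins, so that each cluster held both heptamers. Each heptamer was found in 4 of the 419 rat hairpins in the table (0.955%). Over the 21 bases that begin 1 base before the heptamer, miR-200a and miR-141 differed at 1 position (C17A) and miR-200b and miR-200c at 1 position (U11G), while all other pairs differed at 3 or 4. The authors' alignment allowed mismatches, so reads could have been exchanged within these pairs, and this was not tested.

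Counted reads ranged from 372997 to 3591541 per kidney library, 273410 to 2213358 in liver, 21627 to 1290244 in plasma and 377 to 58151 in urine, where the median was 1312. In kidney, miR-10b-5p had 171528 to 198798 RPM (reads of the miRNA scaled to 1e6 counted reads of the library) and the hepatocyte miRNA miR-122-5p at most 3.90, whereas miR-122-5p had 17441 to 24039 RPM in liver. Methylcellulose urine libraries 1 and 2, of 625 and 950 reads, did not differ beyond sampling noise (p = 0.387, chi-square test over miRNAs). At this depth the test cannot show whether they are 1 sample, and no mean is given for their group. In the main fits and in counts of libraries they entered separately. Counting them once in added fits left the called members at 0 in APAP urine and 1 in urine against plasma. In plasma, APAP library 1 stood apart by its scaling factor (0.349) and methylcellulose library 3 by its depth (21627 reads). Among vehicle libraries no sequencing lane held more than 1 sample type, so lane and sample type cannot be told apart in the comparisons of sample types.

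All 5 major strands were well measured in kidney, and miR-200b-3p, the most abundant, made up 37.0% of the 54533 family reads there. In saline kidneys 1 to 3, miR-200b-3p was at 1684, 1600 and 1094 RPM. MiR-429, which carries the same heptamer in its hairpin, was at 1219, 1049 and 835 RPM, and miR-200a-3p was at 1100, 1036 and 968 RPM. The order of miR-429 and miR-200a-3p was not resolved, at 1034 ± 192 and 1035 ± 66.2 RPM (SD, n = 3). MiR-141-3p (437 ± 80.5 RPM; SD, n = 3) and miR-200c-3p (101 ± 13.3 RPM; SD, n = 3) lay below the 3p strands of the other cluster in every library. RPM also carries how well each sequence is captured in library preparation, which was not measured. The family summed to 4093 ± 665 RPM in saline kidneys and 4445 ± 385 RPM in cisplatin kidneys (SD, n = 3 each), and the groups overlapped.

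**Figure D1:**
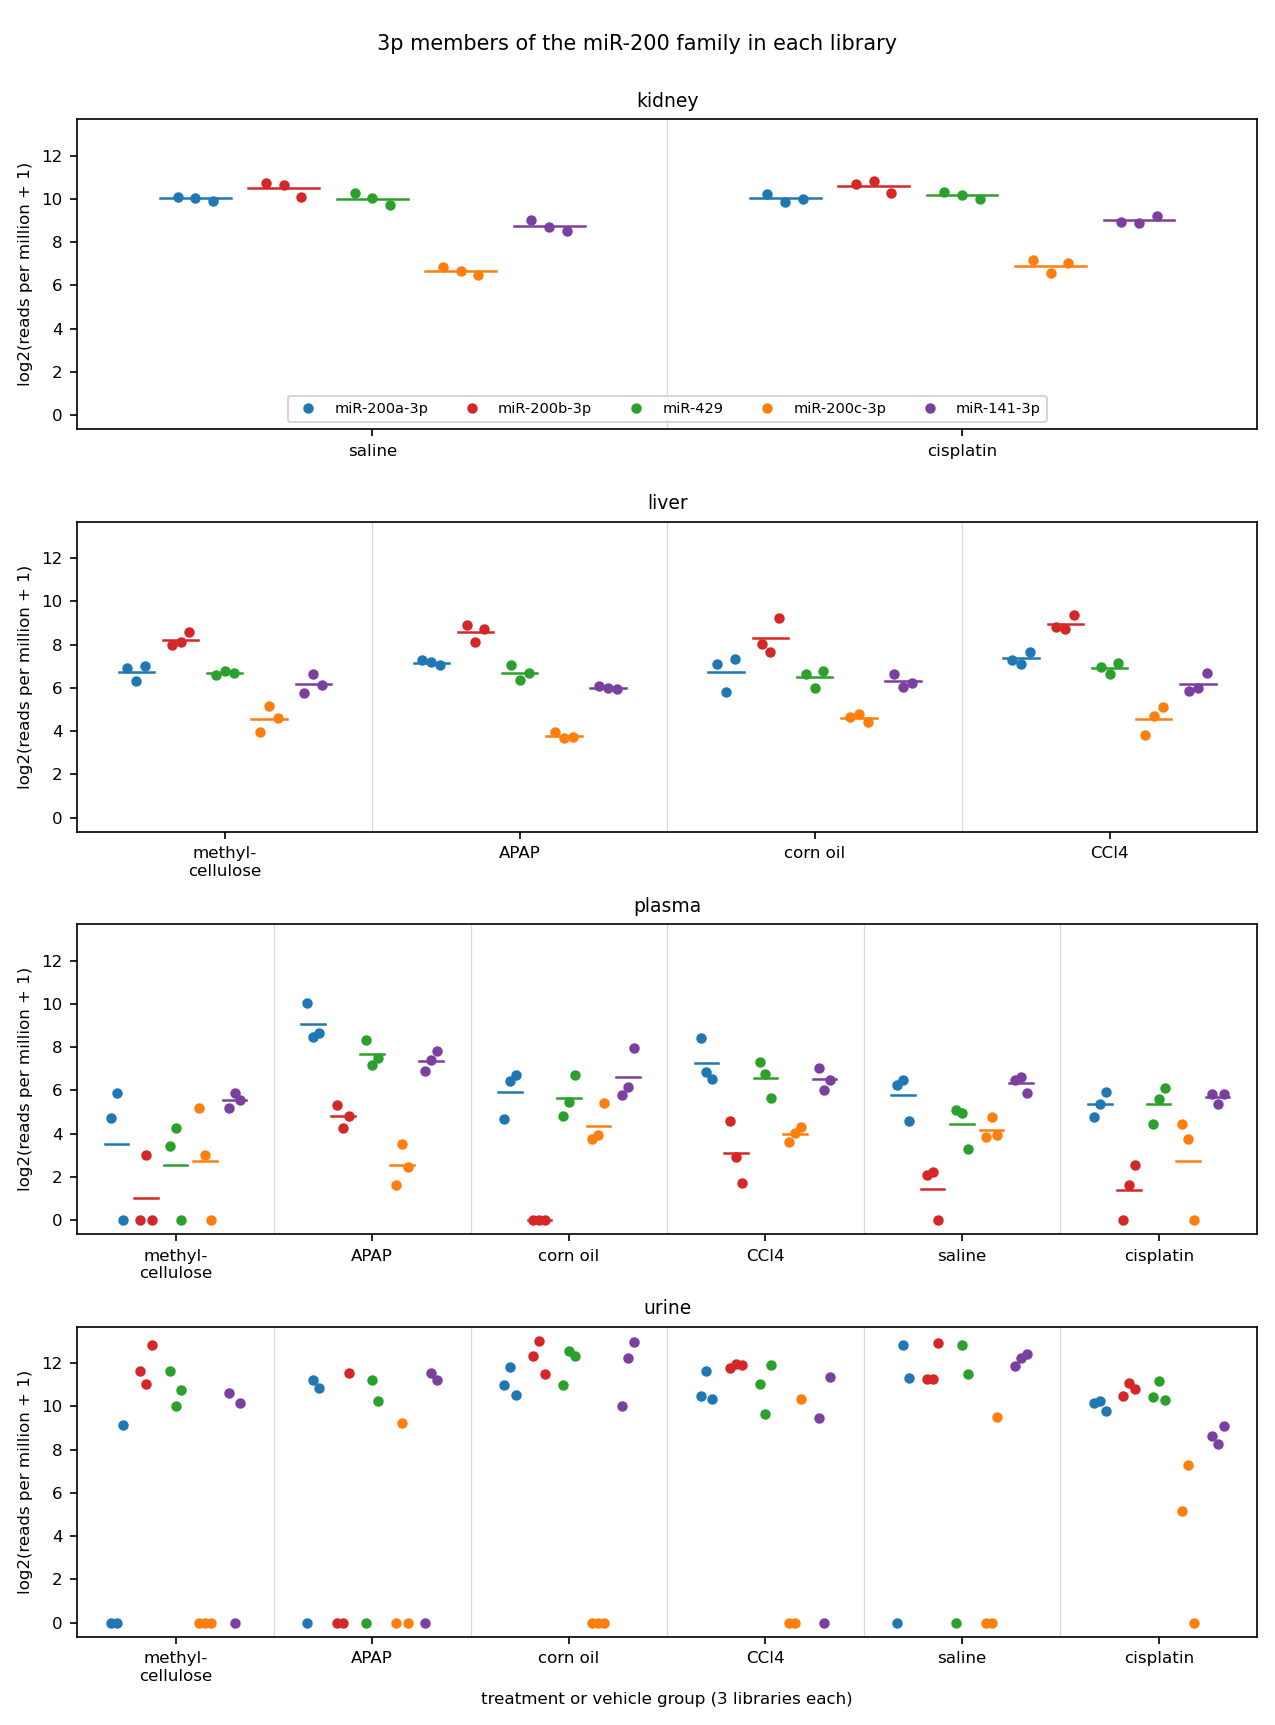
Level of each 3p strand in every library, as log2(RPM + 1), by sample type and group. Each point is 1 library and each line the mean over 3 libraries (not drawn for urine), and miR-200b-3p (red) has the highest mean in kidney and liver but lies below miR-200a-3p, miR-429 and miR-141-3p in every plasma group.

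Liver held the same strands at lower levels, again led by miR-200b-3p, which took 55.1% of the 7735 family reads. In methylcellulose livers 1 to 3 it was at 255, 276 and 381 RPM, and in corn oil livers 1 to 3 at 261, 199 and 604 RPM. Corn oil liver 3, at 604 RPM, sat above all other vehicle livers. MiR-200a-3p (108 ± 26.3 RPM in methylcellulose livers; SD, n = 3) and miR-429 (101 ± 6.42 RPM; SD, n = 3) did not differ beyond their spread. MiR-141-3p (73.7 ± 22.3 RPM) and miR-200c-3p (24.0 ± 9.81 RPM) followed, with SD over 3 livers each. MiR-200b-3p exceeded miR-200a-3p in 6 of 6 kidney and 12 of 12 liver libraries, and miR-141-3p exceeded miR-200c-3p in all of these libraries.

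The comparison of saline kidneys with the 6 vehicle livers asked how far the family separates the organs. Of 275 miRNAs tested with edgeR's quasi-likelihood test, 218 passed at an adjusted p threshold of 0.05 (79.3%), and all 5 tested members were among them, higher in kidney. The log2 difference was 3.31 for miR-429 (SE 0.13, adjusted p = 2.2e-16) and 3.08 for miR-200a-3p (SE 0.17, adjusted p = 8.0e-14). It was 2.42 for miR-141-3p (SE 0.16, adjusted p = 2.2e-12), 2.02 for miR-200b-3p (SE 0.20, adjusted p = 3.6e-09) and 1.99 for miR-200c-3p (SE 0.20, adjusted p = 4.7e-09). MiR-200b-3p thus differed less between the organs than miR-200a-3p and miR-429 of its own cluster, and their intervals of 2 SE did not meet (1.62 to 2.42, 2.74 to 3.41 and 3.04 to 3.57). The differences between members were not themselves tested. Kidney and liver also differ in vehicle, time and lane, and in whole tissue fewer cells of a type and less RNA per cell cannot be told apart. Of 7 other epithelial miRNAs on a list, 5 were tested, 3 were higher in kidney (among them miR-183-5p by 2.47 on the log2 scale) and 1 was lower, and their median was 1.43 against −0.11 over all tested miRNAs.

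Plasma had the family in another order. MiR-200b-3p gave 2 reads in total in methylcellulose plasma, 0 in corn oil plasma and 2 in saline plasma, and it was never above miR-200a-3p in the 18 plasma libraries (below it in 17 and equal in 1, where both had 0 reads). In saline plasma 1 to 3, miR-200b-3p was at 3.31, 3.69 and 0 RPM while miR-141-3p was at 89.2, 95.8 and 57.5 RPM. MiR-200a-3p was at 76.0, 88.5 and 23.0 RPM in these libraries, so its levels overlapped those of miR-141-3p. MiR-429 (23.7 ± 13.2 RPM; SD, n = 3) and miR-200c-3p (17.8 ± 6.96 RPM; SD, n = 3) did not differ beyond their spread. Over vehicle plasma, miR-141-3p took 43.9% of family reads and miR-200b-3p 1.02%.

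Corn oil plasma also had miR-200b-3p as its lowest 3p strand, with a wider spread of the other strands. MiR-141-3p was at 54.1, 70.7 and 249 RPM in libraries 1 to 3 and miR-200a-3p at 24.6, 84.8 and 104 RPM. In library 2 miR-200a-3p was the higher, so the order of this pair was not resolved. The counts behind these levels were small, with 22, 5 and 24 reads of miR-141-3p, and 0 reads of miR-200b-3p in all 3 libraries. MiR-200b-3p was at least 75.4-fold higher in corn oil liver than in corn oil plasma, taking 3 reads over the plasma group as the floor.

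**Figure D2:**
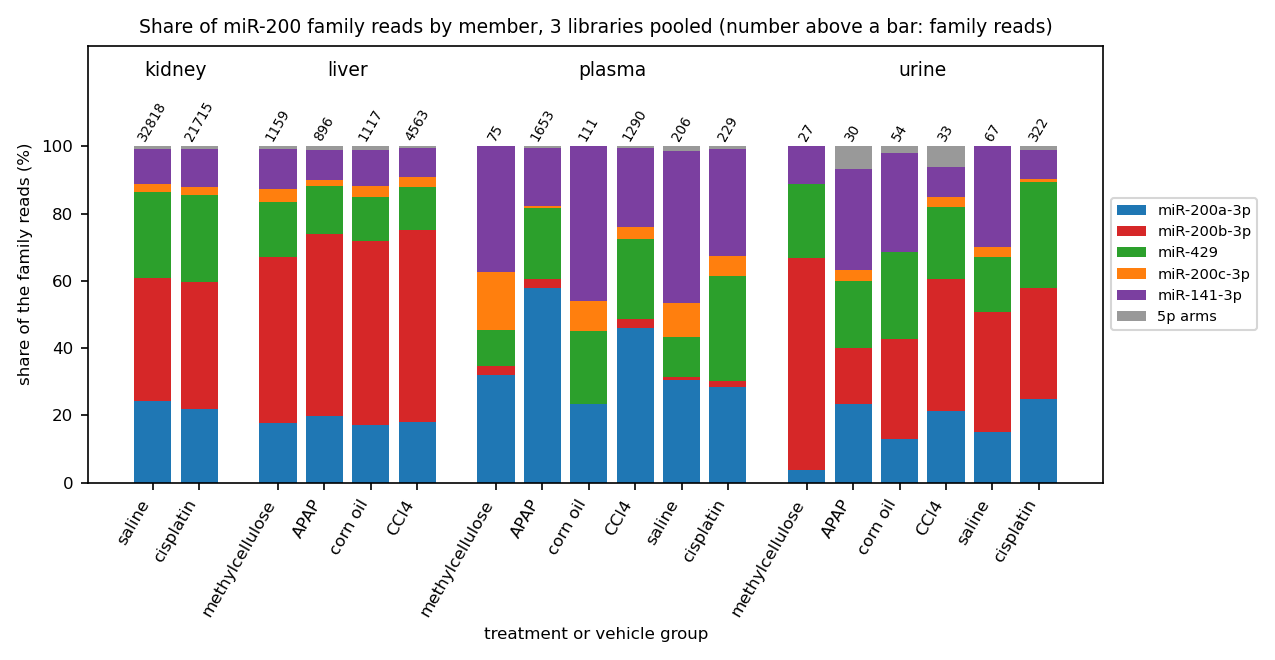
Share of the miR-200 family reads taken by each 3p strand and by the 5p arms together, in percent, with the 3 libraries of each group pooled and the number of family reads above each bar. MiR-200b-3p (red) has the largest share in kidney and liver and a share near 0 in vehicle plasma, where miR-141-3p (purple) is largest.

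Against saline plasma, saline kidney was higher for all 5 tested members, in a comparison where 84.9% of 278 tested miRNAs passed the test. The log2 difference was 10.35 for miR-200b-3p (SE 0.50, adjusted p = 1.1e-09), which passed the filter only through kidney and rests on 12012 kidney reads and 2 plasma reads, a ratio of 1012 with a 95% counting interval of 280 to 8358. It was 6.31 for miR-429 (SE 0.38, adjusted p = 6.9e-09) and 4.85 for miR-200a-3p (SE 0.35, adjusted p = 3.9e-08). In the other cluster it was 3.21 for miR-200c-3p (SE 0.34, adjusted p = 1.3e-06) and 3.13 for miR-141-3p (SE 0.28, adjusted p = 2.0e-07). MiR-429 and miR-200c-3p also passed the filter only through kidney, where they are high, since not every saline plasma library reached its minimum. The differences thus spread over several log2 units in the first cluster and lay close together in the second, a contrast that was not tested. The counting interval covers counting error only.

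Liver against plasma, fitted with vehicle as a term, gave the same order of differences. Of 233 miRNAs tested 75.1% passed, and 3 of 4 tested members passed, higher in liver. These 3 met the filter's minimum in every liver but not in every plasma library. They thus entered the test only through liver, where they are high. The log2 difference was 7.78 for miR-200b-3p (SE 0.61, adjusted p = 3.1e-08), which rests on 2 plasma reads, 2.26 for miR-429 (SE 0.39, adjusted p = 9.2e-05) and 1.77 for miR-200a-3p (SE 0.38, adjusted p = 6.6e-04). For miR-141-3p it was 0.59 (SE 0.35, adjusted p = 0.142), with an interval of 2 SE from −0.12 to 1.29, and this depends on the setting. Leaving out any 1 of the 6 livers gave at least 1.24 (adjusted p from 0.00358 to 0.00826), and leaving out corn oil plasma 2 or 3 gave 1.41 and 1.04 (adjusted p = 0.00444 and 0.00306). It was also called without the filter (1.34) and with DESeq2 (1.09). With RLE scaling, which moved the median of all tested miRNAs from 0.13 to 0.69 and the share of calls that were higher in liver from 50.3% to 62.7%, miR-141-3p stood at 1.15 (adjusted p = 0.0114). With total counts that share was 38.7% and miR-141-3p stood at 0.02 (adjusted p = 0.956).

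**Figure D3:**
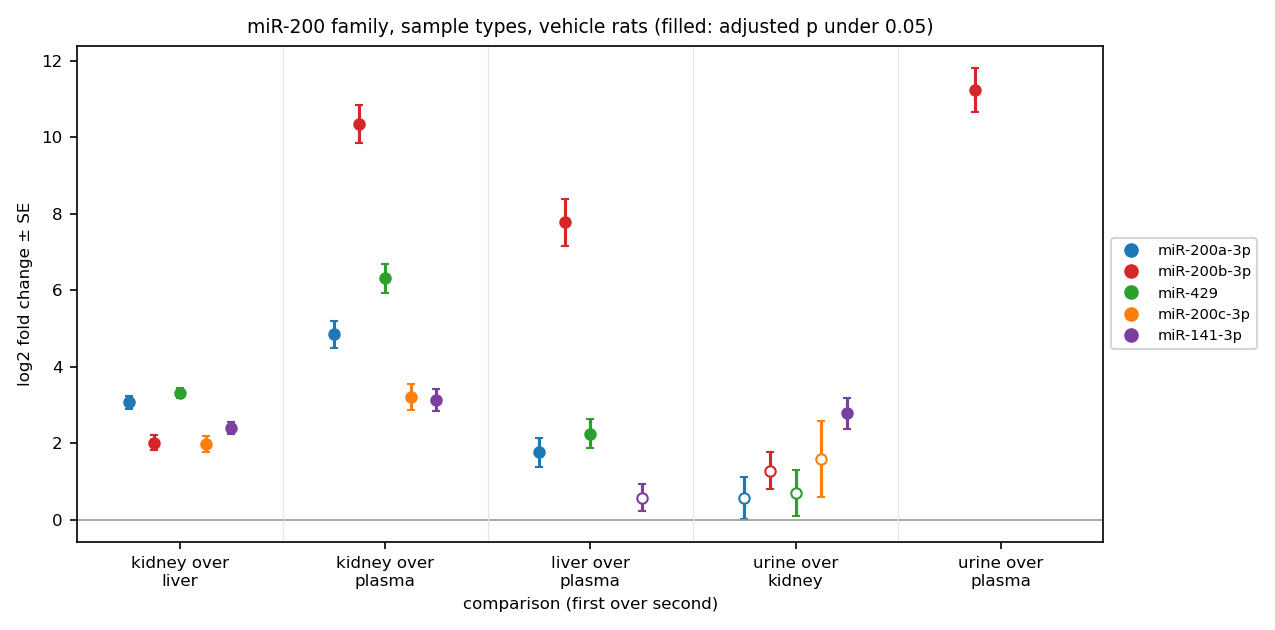
Log2 difference between sample types of vehicle-dosed rats for each member tested, with bars of 1 SE from edgeR's quasi-likelihood fit, filled where the adjusted p is under 0.05. A positive value means a higher level in the first-named sample type, and miR-200b-3p lies apart from the other members in the comparisons with plasma (10.35 for kidney, 7.78 for liver and 11.23 for urine).

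Urine gave few reads of the family, again led by miR-200b-3p. Of the 533 family reads, miR-200b-3p took 181, miR-429 146, miR-200a-3p 112, miR-141-3p 79 and miR-200c-3p 7, and 322 of these reads came from the 3 deeper cisplatin libraries. In the other 15 urine libraries the counts were 75 for miR-200b-3p, 51 for miR-141-3p, 44 for miR-429 and 32 for miR-200a-3p, so that miR-141-3p came second there. MiR-200b-3p was above miR-200a-3p in 15 of 18 urine libraries and below it in 2. In corn oil urine 1 to 3 there were 5, 7 and 4 reads of miR-200b-3p and 1, 4 and 11 reads of miR-141-3p, so the order within a library was not resolved. In methylcellulose urine there were 2, 2 and 13 reads of miR-200b-3p and 0, 0 and 1 reads of miR-200a-3p.

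MiR-200b-3p was higher in vehicle urine than in vehicle plasma by 11.23 on the log2 scale (SE 0.58, adjusted p = 1.8e-14), where 58.9% of 73 tested miRNAs passed, and it was the only member tested, with 4 reads over the 9 plasma libraries. It passed the filter only through urine, where it is high. The median of all tested miRNAs was −0.48 and 34.9% of calls were higher in urine. With DESeq2 the median was 3.85 and 80.6% of calls were higher in urine. Saline urine against saline kidney gave 1 called member of 5, with 11.6% of 198 tested miRNAs past the test. This was miR-141-3p, higher in urine by 2.79 on the log2 scale (SE 0.40, adjusted p = 0.00256), on a scale where the median of all tested miRNAs was −1.50 and 21.7% of calls were higher in urine. With total counts the median was −0.77, 67.7% of calls were higher in urine and miR-141-3p stood at 3.52. It rests on 3, 2 and 15 urine reads, and without saline urine library 3 it was 2.19 (adjusted p = 0.0682). The other members had log2 differences of 0.57 to 1.60 with adjusted p from 0.123 to 0.514.

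The ratio of miR-200b-3p to miR-200a-3p, strands from hairpins 689 bases apart, was then followed in each library (log2, 0.5 reads added to each count). It ran from 0.18 to 0.99 in 6 kidney libraries and from 0.93 to 1.91 in 12 liver libraries. In 18 plasma libraries it ran from −5.09 to 0, and the 0 is methylcellulose library 3, with 0 reads of both strands. Plasma therefore did not overlap kidney or liver, and pooled reads gave a ratio of 1.58 in kidney, 3.04 in liver, 1.62 in urine and 0.050 in plasma. The ratio of miR-200b-3p to miR-429 also separated plasma from the tissues, at 0.31 to 0.64 in kidney, 1.35 to 2.46 in liver and −4.52 to 0 in plasma. In contrast, miR-429 to miR-200a-3p stayed between −0.21 and 0.35 in kidney, −0.81 and 0.46 in liver and −1.71 and 0.27 in plasma, ranges that overlap.

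**Figure D4:**
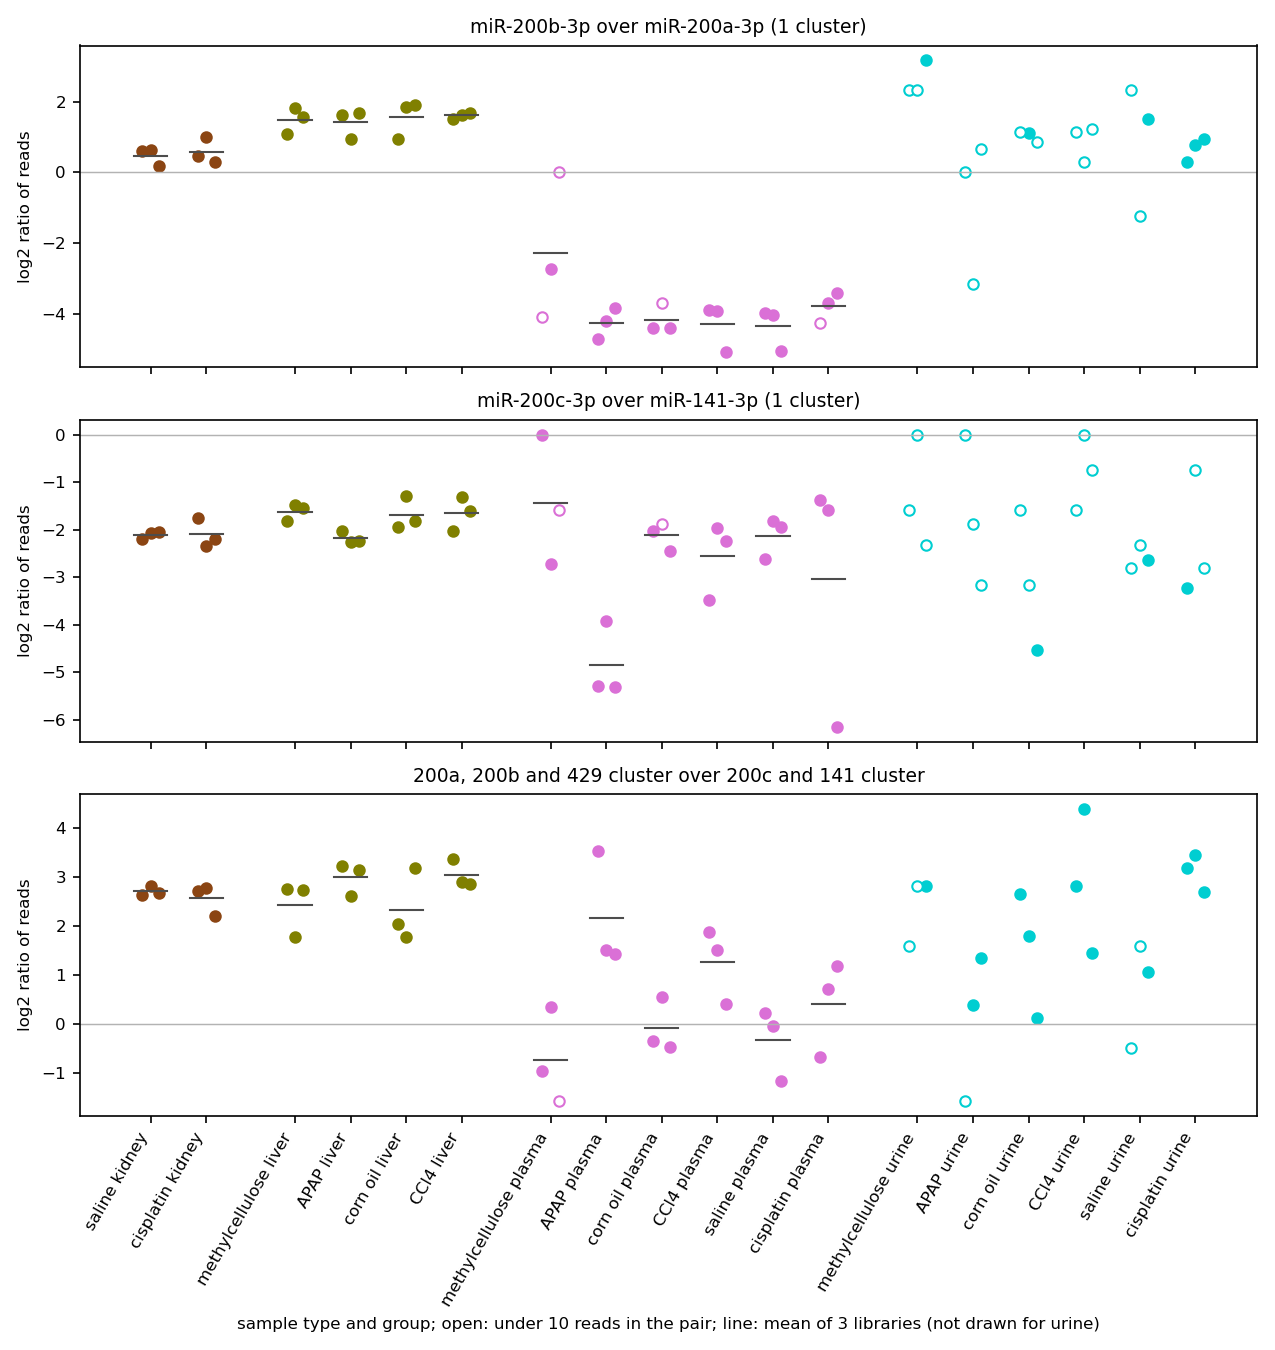
Log2 ratios of member reads in every library, with 0.5 reads added to each count, by sample type and group. Each point is 1 library, open where the pair has under 10 reads, and the lines are means of 3 libraries (not drawn for urine). The ratio of miR-200b-3p to miR-200a-3p is above 0 in all kidney and liver libraries and at or below 0 in all plasma libraries.

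Reads of both clusters were also set against each other. Pooled reads of miR-200a, miR-200b and miR-429 outnumbered those of miR-200c and miR-141 by 6.41 to 1 in kidney and 6.97 to 1 in liver. In vehicle plasma the pooled ratio was 0.829 for methylcellulose, 0.820 for corn oil and 0.791 for saline, with 1 of 3 libraries above 1 in each group. Its side of 1 rests on single libraries, since it was 1.21 without methylcellulose plasma 1 and 1.06 without saline plasma 3. The pooled ratio was 4.57 in APAP plasma (2.80 without library 1), 2.66 in CCl4 plasma (1.65 without library 1) and 1.60 in cisplatin plasma, and all 3 libraries were above 1 after APAP and after CCl4. Leaving out libraries here was chosen once the data had been seen. Within the second cluster, miR-200c-3p to miR-141-3p lay between −2.34 and −1.75 on the log2 scale in kidney and between −2.27 and −1.29 in liver. In plasma it ran from −6.15 to 0, with the lowest value in cisplatin library 3 (0 against 35 reads). The APAP plasma libraries lay between −5.30 and −3.93 against −2.72 to 0 in methylcellulose plasma, without overlap. These values rest on 1, 8 and 2 reads of miR-200c-3p in APAP plasma and 11, 2 and 0 in methylcellulose plasma. Methylcellulose library 3 had only 1 read of miR-141-3p. The separation of these groups was not tested.

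The 5p arms were minor throughout. In kidney, 0.849% of miR-200b reads came from the 5p arm (173 of 20367; exact 95% interval 0.728 to 0.985%), with 0.848% for miR-200a and 1.44% for miR-141, and miR-200c-5p had 2 reads in the whole series. In plasma, 10 of the 97 miR-200b reads were 5p (10.3%, exact interval 5.06 to 18.1%), whereas miR-200a had 2 5p reads (0.116%, 0.0140 to 0.417%). The plasma 5p reads of miR-200b lay in 5 of 18 libraries. The intervals pool libraries and cover counting error only.

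After APAP, miR-200a-3p, miR-429 and miR-141-3p rose in plasma. In methylcellulose plasma 1 to 3, miR-200a-3p was at 25.6, 57.3 and 0 RPM (8, 16 and 0 reads), and in APAP plasma 1 to 3 at 1045, 353 and 401 RPM (512, 269 and 177 reads). MiR-429 went from 9.60, 17.9 and 0 RPM to 319, 145 and 181 RPM. MiR-141-3p went from 35.2, 57.3 and 46.2 RPM to 118, 169 and 222 RPM. For each of these strands all APAP libraries lay above all methylcellulose libraries, and how many of all tested miRNAs did so was not counted.

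Of 227 miRNAs tested in APAP plasma, 61 passed (26.9%), 49 higher and 12 lower. Of the 3 members tested, miR-141-3p passed the filter on low counts in both groups, in methylcellulose plasma 3 with 1 read. In contrast, miR-200a-3p and miR-429, with 1 and 0 of 3 methylcellulose libraries at the filter's minimum, passed only through APAP plasma, where they are high. On scaled counts the log2 change was 5.72 for miR-200a-3p (SE 1.00, adjusted p = 0.00155), 5.62 for miR-429 (SE 0.93, adjusted p = 0.00128) and 3.09 for miR-141-3p (SE 0.55, adjusted p = 0.00166), against a median of 0.21 over all tested miRNAs. Without the filter the changes were 5.09 for miR-200a-3p, 5.04 for miR-429 and 2.72 for miR-141-3p, each still past the test. With total counts as the scale the median moved to −0.92 and the split of calls to 26 higher and 49 lower, while the members stayed called, at 4.03 for miR-429 (adjusted p = 0.00102), 1.87 for miR-141-3p (adjusted p = 0.0244) and an adjusted p of 0.00152 for miR-200a-3p. Leaving out both libraries that stand apart, which was chosen once the data had been seen, gave 3.78, 4.14 and 2.66 (adjusted p = 0.0025, 0.00227 and 0.0037).

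The remaining strands fell under the filter on low counts in this comparison. MiR-200b-3p had 0, 2 and 0 reads in methylcellulose plasma and 19, 14 and 12 in APAP plasma. The pooled levels differed by a ratio of 8.15 (95% counting interval 2.13 to 69.3), and without the filter the log2 change was 3.85 (SE 0.93, adjusted p = 6.5e-04). MiR-200c-3p had 11, 2 and 0 reads in methylcellulose plasma and 1, 8 and 2 in APAP plasma, where the groups overlapped. Its change without the filter was −0.89 (SE 0.80, adjusted p = 0.530), so the strand that shares a cluster with miR-141-3p was not shown to rise with it.

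The other marker lists in APAP plasma moved as follows. Of the other epithelial miRNAs, 3 of 4 tested rose, namely miR-182 (5.44, SE 0.79), miR-183-5p (5.53, SE 0.86) and miR-375-3p (3.58, SE 0.74), and the list's median was 4.51. Of miRNAs of liver and kidney epithelium, 7 of 9 tested rose, with miR-122-5p at 7.85 (SE 1.01), and their summed scaled level was 208409 to 895008 against 17162 to 27948 TMM-scaled CPM in methylcellulose plasma. None of 3 red blood cell, 4 mesenchymal or 7 white blood cell, platelet and endothelial miRNAs tested passed in either direction. The part of these lists in the rise of the miR-200 family was not tested.

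CCl4, the other liver toxicant, gave no called member in plasma, where 1 of 231 tested miRNAs passed (0.433%). MiR-200a-3p was at 24.6, 84.8 and 104 RPM in corn oil plasma and at 343, 115 and 92.2 RPM in CCl4 plasma, so that the groups overlapped. Its log2 change was 1.70 (SE 0.79, adjusted p = 0.529), that of miR-429 was 1.18 (SE 0.72, adjusted p = 0.658) and that of miR-141-3p was −0.18 (SE 0.66, adjusted p = 0.962). MiR-200b-3p had 28, 3 and 3 reads after CCl4 and 0 after corn oil, at least 2.19-fold higher with 3 reads over the group as the floor. That bound rests on CCl4 plasma 1, without which the 6 remaining reads came to 3.44 RPM, under the floor of 5.23 RPM.

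The APAP and CCl4 responses in plasma were then compared by an interaction term. The APAP response exceeded that of CCl4 by 4.56 for miR-429 (SE 1.21, adjusted p = 0.0749), 4.13 for miR-200a-3p (SE 1.33, adjusted p = 0.130) and 3.29 for miR-141-3p (SE 0.86, adjusted p = 0.0749) on the log2 scale. None of 255 miRNAs passed (0%, and 35 at an unadjusted p under 0.05), so the main edgeR fit called no member. That depends on the filter and on single libraries. Without the filter edgeR called 9 miRNAs, 2 of them members. Leaving out corn oil plasma 1, APAP plasma 2 or APAP plasma 3 also gave called members with edgeR. DESeq2 called 8 miRNAs, 2 of them members, namely miR-429 (4.34) and miR-141-3p (3.11), each with an adjusted p of 0.0370.

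Liver tissue gave no called member after either toxicant. After APAP, miR-200a-3p was at 154, 143 and 130 RPM against 119, 78.3 and 127 RPM in methylcellulose livers. On scaled levels the groups overlapped, and its log2 change was 0.37 (SE 0.22, adjusted p = 0.641; 2 SE interval −0.07 to 0.81). MiR-200b-3p changed by 0.33 (interval −0.06 to 0.72), miR-429 by 0.01 (−0.45 to 0.48) and miR-141-3p by −0.25 (−0.81 to 0.31). In that comparison 8 of 249 miRNAs passed (3.21%), 4 members were tested and miR-155-5p and miR-223-3p of the white blood cell list were higher.

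After CCl4, 7 of 254 miRNAs passed (2.76%), and the 5 members tested had log2 changes from −0.20 to 0.35 with adjusted p from 0.507 to 0.972. MiR-200b-3p was at 445, 421 and 656 RPM in CCl4 livers, against 261, 199 and 604 RPM in corn oil livers. Its change was 0.35 (SE 0.29, adjusted p = 0.520), and without corn oil liver 3 it was 1.05 (adjusted p = 3.4e-05), so 1 library decides that call. CCl4 livers 2 and 3 were on lane L6, with 2071739 and 2213358 reads. All corn oil livers were on lane L5, with 410242 to 686738 reads, so lane and depth partly go with treatment. The APAP and CCl4 responses in liver did not separate for any of 5 members (0% of 262 miRNAs called by edgeR, 14 at an unadjusted p under 0.05 and 1 by DESeq2).

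In the 12 livers, strands of the same cluster varied together. Pearson's r of log2 RPM was 0.782 for miR-200a-3p with miR-200b-3p, 0.741 for miR-200a-3p with miR-429 and 0.777 for miR-200c-3p with miR-141-3p. Pairs from different clusters had r from −0.274 to 0.318. In 18 plasma libraries, miR-200a-3p and miR-429 had an r of 0.949, and miR-200c-3p and miR-141-3p of 0.124. There miR-141-3p had an r of 0.683 with miR-200a-3p and 0.665 with miR-429, both of the other cluster. In 6 kidney libraries the pairs did not sort by cluster. For example, r was 0.222 for miR-200a-3p with miR-200b-3p and 0.828 for miR-200a-3p with miR-200c-3p. The points of each pair share their library and its depth, and they include the treated groups.

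In kidney after cisplatin none of 8 tested members was called, where 6 of 344 miRNAs passed (1.74%). Log2 changes ran from −0.30 for miR-141-5p to 0.25 for miR-141-3p, with adjusted p from 0.863 to 0.986. The interval of 2 SE was −0.23 to 0.30 for miR-200a-3p, −0.23 to 0.49 for miR-200b-3p, −0.13 to 0.48 for miR-429, −0.14 to 0.63 for miR-200c-3p and −0.04 to 0.54 for miR-141-3p. None of the 7 other epithelial miRNAs passed either, while 2 of 3 red blood cell miRNAs were lower.

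In plasma after cisplatin, none of 3 tested members passed, where 9 of 222 miRNAs did (4.05%). MiR-429 was at 20.7, 48.3 and 67.1 RPM against 33.0, 29.5 and 8.63 RPM in saline plasma, with a log2 change of 1.35 (SE 0.53, adjusted p = 0.228). Without cisplatin plasma library 1 it was 1.75 (adjusted p = 0.0192). That fit sets saline libraries, all on lane L1, against cisplatin plasma 2 and 3, both on lane L2. Lane and treatment therefore cannot be told apart in it. MiR-200a-3p (−0.23, SE 0.47) and miR-141-3p (−0.45, SE 0.36) had adjusted p of 0.925 and 0.771. All 3 red blood cell miRNAs were lower in the same libraries, and their part in these values was not tested.

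Cisplatin urine had less miR-141-3p than saline urine, on few reads, while the level varied widely between vehicles. Methylcellulose urine 1 to 3, taken at 24 h, was at 1600, 0 and 1140 RPM (1, 0 and 2 reads). Corn oil urine 1 to 3, also at 24 h, was at 1027, 4813 and 8017 RPM (1, 4 and 11 reads). MiR-141-3p was at 3690, 4878 and 5505 RPM in saline urine 1 to 3 (3, 2 and 15 reads). It was at 396, 308 and 538 RPM in cisplatin urine 1 to 3 (23, 2 and 3 reads). As shares of all counted reads, miR-141-3p made up 0.369%, 0.488% and 0.550% in saline urine. The exact 95% binomial intervals were 0.0762 to 1.07%, 0.0591 to 1.75% and 0.308 to 0.906%. In cisplatin urine they are 0.0396% (0.0251 to 0.0593%), 0.0308% (0.00373 to 0.111%) and 0.0538% (0.0111 to 0.157%). The saline and cisplatin groups did not overlap in level, although the intervals of some shallow libraries did. Such separation was not counted over all tested miRNAs.

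Both members tested passed the filter on low counts only through saline urine, where they are high, since its minimum was 2408 CPM at these depths. The log2 change of miR-141-3p was −3.56 (SE 0.47, adjusted p = 2.2e-04), or −2.73 without the filter (adjusted p = 0.00429), in a comparison where 6 of 43 miRNAs passed (14.0%) and the median of all was −0.25. Of the calls 16.7% were higher after cisplatin, against 37.5% with RLE scaling, where the median was 0.00 and miR-141-3p stood at −3.22. MiR-141-3p stayed called in each fit that left out 1 library (−3.26 to −2.67) and with lane as a term, a fit added once the data had been seen (−3.53, adjusted p = 0.0012). MiR-200b-3p was at 2460, 2439 and 7706 RPM in saline urine and 1410, 2154 and 1792 RPM in cisplatin urine. Its change was −1.68 (SE 0.54, adjusted p = 0.0523), without the filter it was −0.92 (adjusted p = 0.646), and without saline urine library 3 it was 0.09. Cisplatin libraries had 5580 to 58151 reads and saline libraries 410 to 2725, and the part of this depth gap in the result was not tested.

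Of the family's other strands in cisplatin urine, miR-200b-3p was at 1785 ± 372, miR-429 at 1646 ± 576 and miR-200a-3p at 1093 ± 175 RPM (SD, n = 3 each). The pooled ratio of the first to the second cluster was 9.39 in cisplatin urine and 2.05 in saline urine. It was 8 in methylcellulose urine (24 against 3 reads), 2.18 in corn oil urine, 7.25 in CCl4 urine and 1.73 in APAP urine. Vehicle urine alone thus ran from 2.05 to 8, and the difference after cisplatin was not tested. On the list of other epithelial miRNAs only miR-182 was tested, with a log2 change of 0.73 (adjusted p = 0.173). No member passed the filter on low counts in APAP or CCl4 urine, where edgeR called 0 of 20 miRNAs in each (0%; 3 and 2 at an unadjusted p under 0.05) and DESeq2 called 0.

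MiRNAs outside the family were ranked by how closely their log2 RPM followed each cluster over 36 kidney, liver and plasma libraries, among 293 miRNAs compared. MiR-183-5p (r = 0.930) and miR-182 (r = 0.901), both known from sensory and other epithelia, were nearest to the cluster of miR-200a, miR-200b and miR-429, followed by miR-29c-3p (0.880), miR-30a-5p (0.875) and miR-194-5p (0.854). Nearest to miR-200c and miR-141 were miR-9a-5p (0.801), miR-30a-5p (0.799), miR-196a-5p (0.797), miR-541-5p (0.762) and miR-218a-5p (0.758). MiR-183-5p averaged 395 RPM in kidney, 70.9 RPM in liver and 42.2 RPM in plasma. MiR-196a-5p averaged 183 RPM in kidney and 0.0779 RPM in liver, so it lacks the liver level that miR-200c-3p and miR-141-3p have. The points share libraries and the contrast between sample types.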

How the data were processed

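Small RNA libraries were prepared with a TruSeq kit. Per the labels and methods, the authors clipped adaptors, aligned reads with OSA to rat (Rnor 5.0 is the build in the submitters' processing notes) and miRBase, and deposited whole-number counts per mature miRNA, not normalized. All 54 columns were mapped to samples by name, and 0 columns had no sample. Members and lists were chosen with earlier results of these data known. Members were named by rule: all rows of the family, plus the 5 miRNAs most like each cluster and list members past the test.

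Counts were tested with edgeR 4.0.16 in R 4.3.3 (TMM factors, filterByExpr with a minimum count of 10 and total of 15, quasi-likelihood F test, 2-sided, Benjamini-Hochberg over all miRNAs tested in a comparison, threshold 0.05). The SE is the log2 change over the square root of F, and scaled levels are TMM-scaled CPM. The tests covered 16 comparisons, 9 of toxicant against vehicle, 5 of sample types and 2 of responses. The scripts were checked on simulated data. Alternatives were RLE and total count scaling, no filter, DESeq2 1.42.0, a replicate block, a fit shared over the sample type and leaving out each library. Lane as a term, leaving out both plasma libraries that stand apart, counting methylcellulose urine 1 and 2 as 1 sample, equal depth and leaving out libraries from pooled plasma ratios were added after seeing the data. Intervals are exact binomial at 95%. The floor for a count of 0 was 3 reads. Reads without molecular identifiers are not independent molecules. Shallow urine libraries limit precision in urine. Replicate numbers paired the kidney libraries by the data (correlations of same-numbered deviations 0.26, 0.33 and 0.38), and in no other comparison were all pairs over 0.1. Tables were handled in Python 3.11.15 with pandas 2.3.3, NumPy 2.4.6 and SciPy 1.17.1.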

Additional observations from a re-analysis of the deposited data

How the results depend on the processing

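No alternative turned the direction of a called member, while miR-200b-3p in cisplatin urine, which was not called, went from −1.68 to 0.09 without saline urine 3. The count of called members kept within 1.5 times its value in 193 of 217 alternative fits. That share includes comparisons with 0 called members, for which a factor of 1.5 sets no range. Among them are APAP and CCl4 urine, where the main fit tested no member. With the replicate block, 2 members were called in cisplatin urine instead of 1 (miR-200b-3p at −1.42, adjusted p = 0.0497), and the block changed no other member call; the numbers paired the libraries only in kidney. Without the filter, called members numbered 8 in kidney against liver, 8 in kidney against plasma, 7 in liver against plasma, 2 in urine against kidney, 4 in urine against plasma and 2 in the plasma difference of responses. With DESeq2 they numbered 8 in kidney against plasma, 5 in liver against plasma, 6 in urine against kidney, 7 in urine against plasma and 2 in the plasma difference of responses. Urine against kidney gave 2 with RLE and 3 with total counts, and its split of calls moved from 21.7% higher to 67.7% with total counts and 94.2% with DESeq2. Leaving out 1 library gave 3 to 5 in liver against plasma (5 without corn oil plasma 2), 0 to 2 in urine against kidney (0 without saline urine 3, 2 without saline urine 1), 1 to 2 in urine against plasma (2 without methylcellulose urine 2 or saline urine 1) and 3 to 4 in plasma after APAP. It gave 0 to 2 in the plasma difference of responses (2 without corn oil plasma 1, 1 without APAP plasma 2 or 3), 0 to 1 in plasma after cisplatin (1 without cisplatin plasma 1) and 0 to 1 in liver after CCl4 (1 without corn oil liver 3). The causes were not tested, except that fits without the filter tested more rows. The family level of APAP plasma was 1022 RPM unscaled and 1784 with TMM factors over plasma, and that of cisplatin urine 5064 and 6892 with factors over urine. A fit shared over urine gave no value for cisplatin urine, nor did urine against plasma without each plasma library of a vehicle group in turn. Urine depth limits all urine values, and members at 0 to 5 reads there carry no order.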
